A study of Arabidopsis thaliana with 6 samples.

Results

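Cytochrome P450 genes of *Arabidopsis* were followed in seedlings that had received the chitin tetramer (4mer). A gene was taken as a member when its symbol in the array's probe-to-gene table is CYP followed by 2 or 3 digits and a letter, or is *CYP718*, and when its probe set pairs with that gene alone. This gave 24 genes, each with 1 probe set, out of 22746 probe sets, of which 13513 pair with 1 gene. By family number, 19 of the 24 are *CYP71B* genes, and *CYP51G2*, *CYP718*, *CYP78A9*, *CYP79A2* and *CYP84A4* stand alone in theirs. The current gene table of the species holds 237 symbols of this form, and the genes not listed for the array were not analysed here. The probe-to-gene table leaves 8730 probe sets unlisted, so a P450 gene missing here may still be on the array. A gene of any kind is called measured below when a probe set is listed for it alone, and other genes may also be on the array. A further 2 probe sets pair with such a gene and with another one and were left out, as were 2 cyclophilin genes whose symbols also begin with CYP.

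Seedlings of the accession Col-0 had grown for 14 days in shaken liquid MS medium under constant light, many to a flask. They were treated for 30 min with purified 4mer at a final 100 µg/mL or, as mock, with water, and nothing else differed by label between the groups. Each group has 3 independent biological replicates on ATH1 arrays. A level below is the deposited probe set signal divided by the median signal of its array, a fold change is the difference of the mean log2 levels (4mer minus mock), and a gene was called changed at an adjusted p under 0.05 in limma over all probe sets.

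P450s are heme enzymes that use an electron donor and oxygen to place a hydroxyl group or a related oxidation on a small molecule. In plants they serve the synthesis and breakdown of hormones, sterols, fatty acid polymers, pigments and defense compounds. The *CYP71* family is among the largest in *Arabidopsis*, its *CYP71B* genes lie largely in rows of neighbours that arose by local duplication, and 1 of them, not among the genes measured here, completes the synthesis of the antimicrobial camalexin. For most *CYP71B* genes the substrate is not known.

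The arrays carry one common scaling, and mock replicate 1 stands apart, with correlations of 0.952 to 0.960 with the other arrays against 0.984 to 0.993 among all others, over 14505 probe sets with a mean level of at least 0.5. In the seedlings, *RCA*, the activase of the carbon-fixing enzyme in green tissue, was at 54.5 ± 11.2 (SD, n = 3) in mock and 52.8 ± 3.6 in 4mer arrays, and the root genes *PYK10* and *EXPA7* were also present. Of the listed marker genes, 1 of 5 for the shoot, 2 of 6 for the root, 3 of 4 for pollen and none of 4 for seed storage could be matched to a probe set. The pollen genes AT1G01310, AT5G45880 and AT3G62710, whose transcripts belong to an organ the seedlings lack, had mean mock levels of 0.0107, 0.0512 and 0.266, and mean 4mer levels of 0.0128, 0.101 and 0.376. They are given as levels of genes whose usual source is absent, and none of them passed the test. Whether the signal of a P450 gene at or below the level of AT3G62710 comes from its transcript was not tested. Mock replicate 1 had the highest *RCA* and *PYK10* levels of the 6 arrays and the lowest *EXPA7* level, and the part of this in the results below was measured only by leaving that array out.

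After the 4mer, 1 of the 24 P450 genes changed, and it fell. This was *CYP718*, in a comparison where 0.101% of all probe sets were called. The gene was made a member by name with its fall already known, so the count of 1 cannot be read against that share. The counts of lower genes below include it. The call rests on few arrays: it did not hold on leaving out any single array except mock replicate 1, with adjusted p-values from 0.0650 to 0.171 in limma. Over all probe sets the 23 calls became 338 without mock replicate 1 and 0 or 1 without any other array. The remaining 23 genes did not pass the test. At an unadjusted p under 0.05, 1 gene was higher and 4 were lower, where 4.54% of all probe sets were higher and 6.86% lower. By fold alone, 1 gene was at least 1.5-fold higher and 3 were at least 1.5-fold lower, against 6.23% and 5.68% of all probe sets. The levels of both groups did not overlap in 7 genes, with the 4mer arrays above in 2 and below in 5, where the shares over all probe sets were 7.86% and 12.5%. Counted by sign, 11 genes lay above 0 and 13 below, where 52.3% of all probe sets lay below. The median log2 fold change was -0.06, beside -0.01 over all probe sets. Without mock replicate 1 the signs were 13 above and 11 below and the median was 0.06. Each count was of a few genes, and the sign of the median changed with 1 array, as it also did without 4mer replicate 1, at 0.06.

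**Figure D1:**
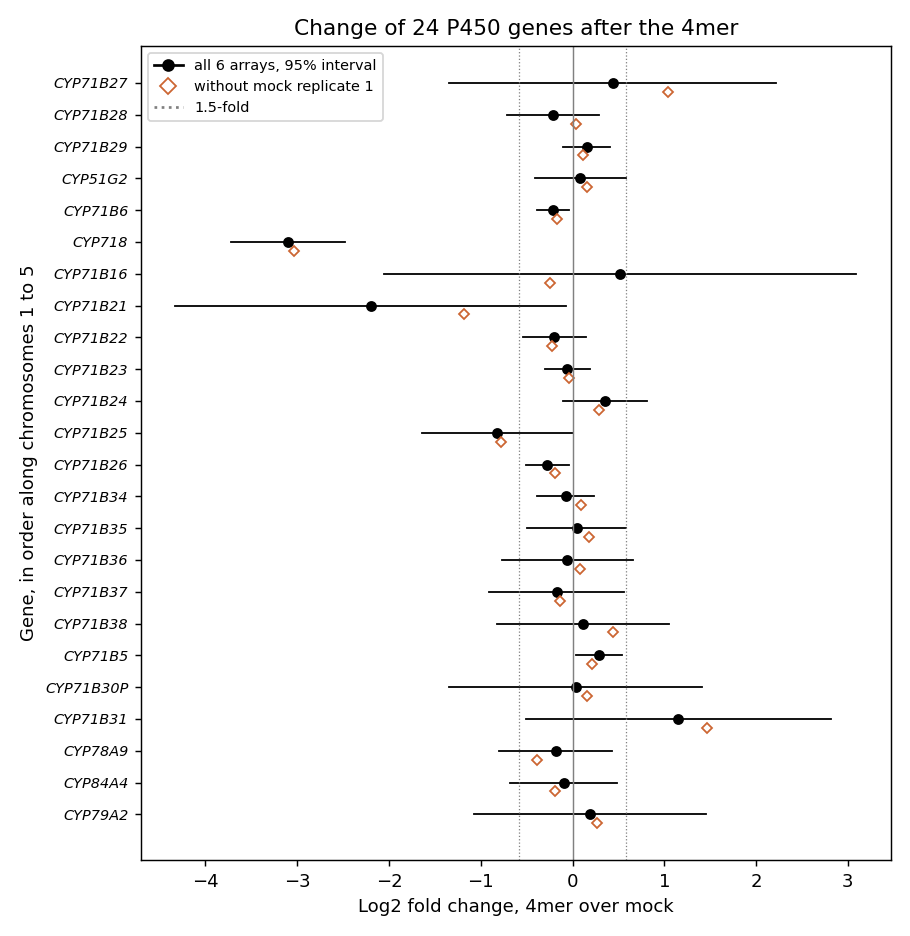
Log2 fold change (4mer over mock) of the 24 P450 genes, in order along chromosomes 1 to 5. Black points with bars are the fit on all 6 arrays with its 95% interval, open diamonds leave out mock replicate 1, and dotted lines mark 1.5-fold. *CYP718* at -3.10 lies far to the left of 0, and the intervals are wide for dim genes such as *CYP71B16*, *CYP71B21* and *CYP71B31*.

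The precision differed among the genes. The standard error of the log2 fold change ran from 0.08 for *CYP71B6* to 1.12 for *CYP71B16*, with a median of 0.26, against 0.18 over all probe sets. The 95% interval lay within 1.5-fold in either direction for 8 of the 24 genes, a share of 33.3% where all probe sets gave 47.3%. Among the 9 genes with a mean level of at least 0.5 it did so for 7, and over all probe sets as bright the share was 72.4%. The narrow intervals therefore belong to the brighter probe sets. Of the 24 genes, 9 reached this brightness, while 6 were below 0.25 in every array.

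*CYP718* (AT2G42850, on chromosome 2) is the only gene of its family here and belongs to the clan of plant P450s that also holds enzymes of brassinosteroid, gibberellin and abscisic acid metabolism. Its own substrate is not stated in the sources used here. It was at 0.750, 0.611 and 0.695 times the array median in mock replicates 1 to 3 and at 0.0849, 0.0647 and 0.0911 in 4mer replicates 1 to 3. Every mock array was far above every 4mer array, and mock replicate 1 did not stand apart from the other mock arrays for this gene. The means were 0.685 ± 0.070 (SD, n = 3) and 0.0802 ± 0.0138 (SD, n = 3), a ratio of 8.54 between the signals as measured, which holds only as far as the dim 4mer signal is that of the transcript. On the log2 scale the gene fell by 3.10, with a 95% interval from -3.73 to -2.48 (adjusted p = 0.0179, limma). It had the third smallest p of all probe sets, at rank 3.

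The fall took *CYP718* from the middle of the array to its dim end. In deposited units, the signal was 148.4, 124.6 and 143.2 in mock and 17.5, 13.7 and 18.8 in 4mer arrays. Its mock signals were brighter than 40.5% to 43.6% of the signals of their arrays, and its 4mer signals were brighter than 10.8% to 13.0%. The 4mer levels thus lie within the range of the pollen genes, and how much of the 4mer signal comes from *CYP718* transcript was not tested. With levels below 0.25 set to 0.25, the log2 fold change was -1.45 (adjusted p = 0.0418, limma). In RNA of whole seedlings, fewer cells that express a gene and less RNA per cell cannot be told apart.

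Few probe sets fell as far as *CYP718*, a gene chosen with its fall known, so the counts here describe it and test nothing. A mean mock level between 0.5 and 1.0 was found for 3048 probe sets. Of them, *CYP718* was the only 1 with every 4mer array below 0.1. The band and the limit of 0.1 both lie around its own levels and were set after these had been seen. Over all probe sets, 8 had a log2 fold change as low as that of *CYP718* or lower, itself included, of which 2 passed the test. Of these 8, 2 were at 0.5 or above in every mock array. The others were below 0.5 in at least 1 mock array.

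**Figure D2:**
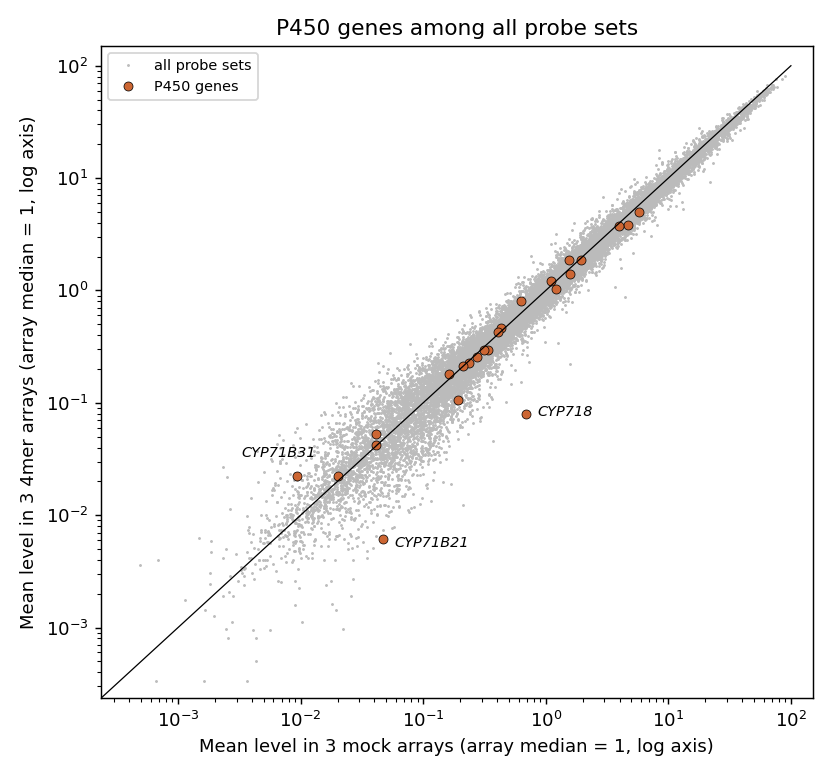
Mean level in the 3 mock arrays (horizontal, log axis) and in the 3 4mer arrays (vertical, log axis), as multiples of the array median, with grey points for all probe sets, orange points for the 24 P450 genes and a line of equal levels. *CYP718* lies at 0.685 and 0.0802, apart from the cloud of other probe sets, and most other P450 genes lie on or near the line.

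The call for *CYP718* was kept on leaving out mock replicate 1 and lost on leaving out any of the rest, while its size hardly moved. Without mock replicate 1 the log2 fold change was -3.04 and the adjusted p in limma was 0.00851. Leaving out mock replicate 2 or 3 gave an adjusted p of 0.108 and 0.10, and leaving out 4mer replicate 1, 2 or 3 gave 0.171, 0.0650 and 0.105, with log2 fold changes between -3.20 and -2.96. In each of these fits the direction was the same.

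**Figure D3:**
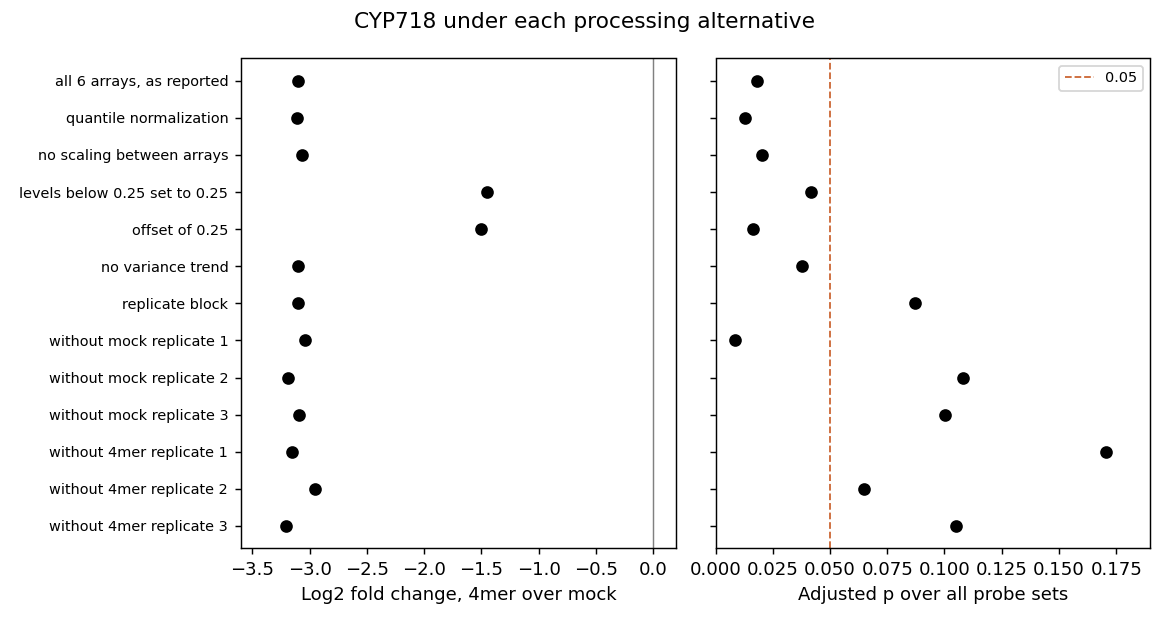
*CYP718* under each alternative that tests it. Points on the left give the log2 fold change (4mer over mock), points on the right the adjusted p over all probe sets, and the dashed line marks 0.05. The fold change stays near -3.1 except at -1.45 and -1.5 where low levels were raised, and the adjusted p crosses the line with the replicate block and without any array other than mock replicate 1.

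Among the brighter *CYP71B* genes, *CYP71B6* and *CYP71B26* were lower with the 4mer in every array, by less than 1.5-fold. *CYP71B6* (AT2G24180) encodes an enzyme that converts indole-3-acetonitrile toward indole carboxylic compounds of defense. It was at 6.15, 5.76 and 5.44 in mock and at 5.04, 4.92 and 4.96 in 4mer arrays. Its log2 fold change was -0.22 (95% interval -0.39 to -0.04, adjusted p = 0.358, limma). The groups did not overlap, and the interval leaves no room for a 1.5-fold fall. *CYP71B26* (AT3G26290), whose substrate is not known, was at 5.26, 4.13 and 4.64 in mock and at 3.66, 3.87 and 4.01 in 4mer arrays. Its lowest mock array lay just above its highest 4mer array, and the log2 fold change was -0.28 (95% interval -0.51 to -0.04, adjusted p = 0.379). In both genes mock replicate 1 was the highest of the 6 arrays, and without it the log2 fold changes were -0.17 and -0.19.

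*CYP71B5* and *CYP71B24* were higher with the 4mer in every array, and neither passed the test. *CYP71B5* (AT3G53280) was at 1.37, 1.53 and 1.70 in mock and at 1.95, 1.85 and 1.80 in 4mer arrays, a log2 fold change of 0.29 (95% interval 0.04 to 0.54, adjusted p = 0.387). No 4mer array fell within the mock range, and mock replicate 1 was the lowest. *CYP71B24* (AT3G26230) was at 0.573, 0.693 and 0.614 in mock and at 0.701, 1.04 and 0.70 in 4mer arrays. Only 4mer replicate 2 was clearly above the mock arrays, and the other 4mer arrays exceeded mock replicate 2 by a small margin. The log2 fold change came to 0.35 (95% interval -0.10 to 0.81, adjusted p = 0.534), and to 0.17 without 4mer replicate 2.

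**Figure D4:**
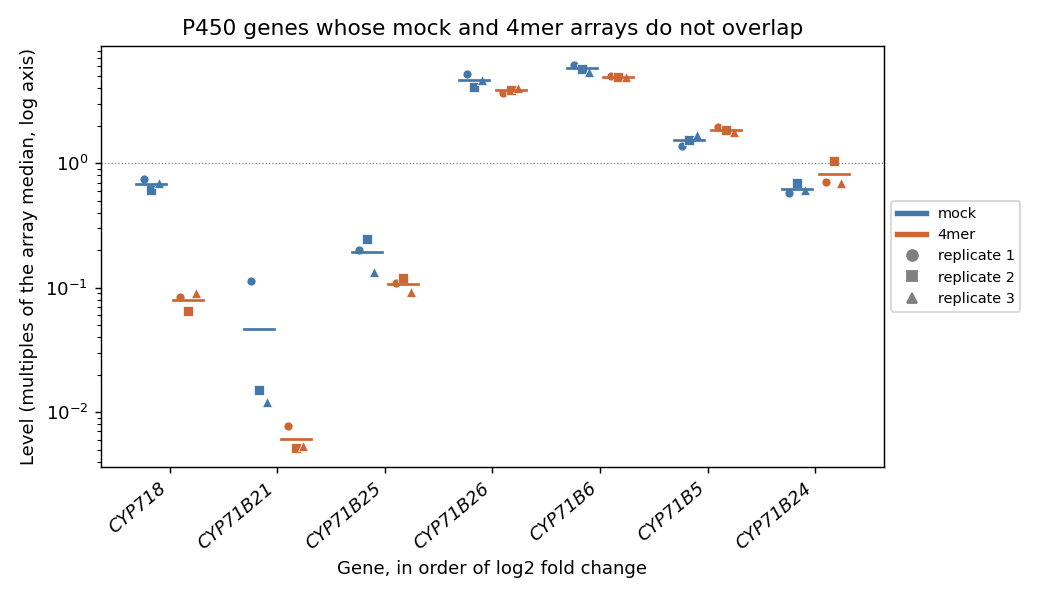
Levels (multiples of the array median, log axis) of the 7 P450 genes whose groups do not overlap, in order of log2 fold change. Blue marks are mock and orange marks 4mer arrays, the shape gives the replicate and the line the group mean, and the dotted line is the array median. The gap between the groups is wide in *CYP718*, and in *CYP71B21* the mock mean is set by replicate 1 at 0.113.

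The other 5 bright *CYP71B* genes had groups that overlapped. *CYP71B34* was at 4.89, 3.50 and 3.48 in mock and at 3.70, 3.59 and 3.84 in 4mer arrays. Mock replicate 1 alone was high, so that the log2 fold change of -0.07 (adjusted p = 0.866) became 0.09 without it. *CYP71B28* showed the same pattern, at 1.66, 0.980 and 0.994 in mock and at 1.11, 0.883 and 1.07 in 4mer arrays. Its log2 fold change was -0.21 (adjusted p = 0.748), and 0.04 without mock replicate 1. In *CYP71B22* it was instead 4mer replicate 2 that was low, at 1.1, while the mock arrays were at 1.54, 1.64 and 1.59 and the other 4mer arrays at 1.5 and 1.61 (log2 fold change -0.20, adjusted p = 0.647). Without 4mer replicate 2 the log2 fold change of *CYP71B22* was -0.03. *CYP71B23* was close to level, at 1.95 ± 0.03 (SD, n = 3) in mock and 1.88 ± 0.22 in 4mer arrays (log2 fold change -0.06, adjusted p = 0.880). *CYP71B29* was at 1.10 ± 0.06 and 1.22 ± 0.08 (log2 fold change 0.15, adjusted p = 0.639). For these 5 genes the intervals of the log2 fold change reached at most 0.41 upward and -0.71 downward, the latter in *CYP71B28*.

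The measured *CYP71B* genes lie mostly in 3 rows on the chromosomes. The row from AT3G26150 to AT3G26330 on chromosome 3 holds 24 annotated genes, 18 of them with *CYP71B* symbols, of which 11 were measured. Of these, 3 were above and 8 below 0, with a median log2 fold change of -0.07, where 52.3% of all probe sets were below 0. *CYP71B24* and *CYP71B25*, which are next to each other among the measured genes, had log2 fold changes of 0.35 and -0.82, and *CYP71B26* follows with -0.28. A second row on chromosome 3, from AT3G53280 to AT3G53300, has *CYP71B5*, *CYP71B30P* and *CYP71B31*. Their log2 fold changes were 0.29, 0.03 and 1.15, all above 0 with and without mock replicate 1. *CYP71B30P* and *CYP71B31* are dim, with standard errors of 0.60 and 0.72, so the signs of their changes were not resolved. On chromosome 1, *CYP71B27*, *CYP71B28* and *CYP71B29* had 0.44, -0.21 and 0.15, and without mock replicate 1 all 3 were above 0. No gene of the 3 rows passed the test over all probe sets, and the grouping by position was made after the values had been seen.

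**Figure D5:**
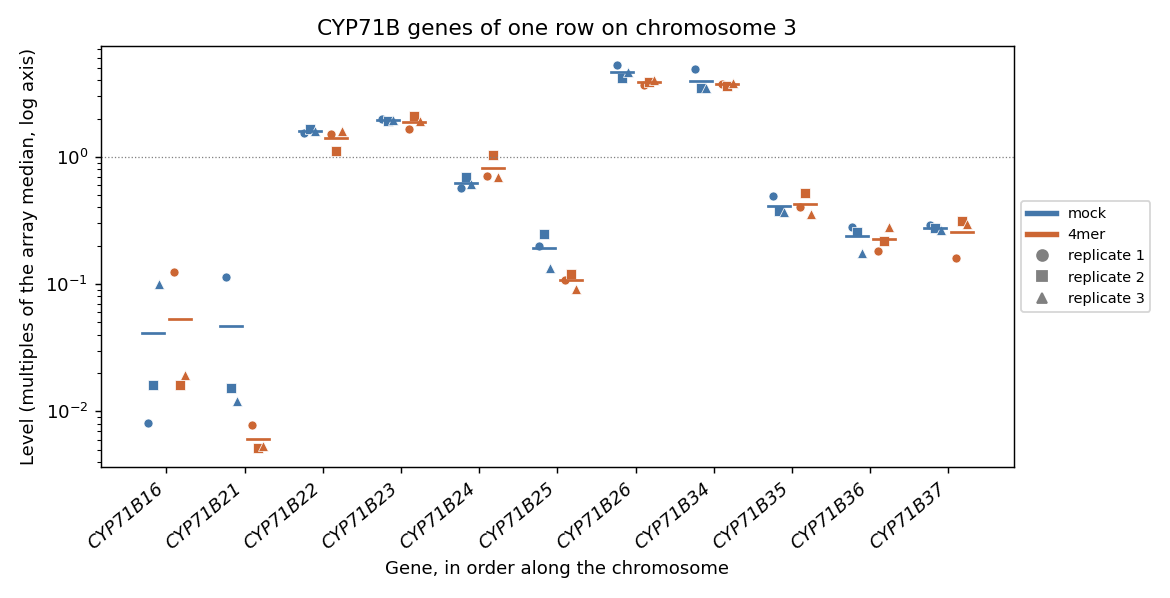
Levels (multiples of the array median, log axis) of the 11 measured *CYP71B* genes of the row on chromosome 3, in order along it. Blue marks are mock and orange marks 4mer arrays, with the shape for the replicate, a line for the group mean and a dotted line at the array median. Signals of different probe sets are not a common scale of abundance, and the groups do not overlap in *CYP71B21*, *CYP71B24*, *CYP71B25* and *CYP71B26*, while the arrays of *CYP71B16* spread widely within each group.

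In the dim *CYP71B* genes the arrays of a group differed too much for most changes to be measured. *CYP71B21* (AT3G26190) was at 0.113, 0.0152 and 0.0121 in mock and at 0.00776, 0.00520 and 0.00533 in 4mer arrays. All mock arrays were above all 4mer arrays, but mock replicate 1 was far above the other mock arrays. The fitted log2 fold change of -2.20 (95% interval -4.33 to -0.07, adjusted p = 0.427) became -1.18 without mock replicate 1. Every level is under 0.25, so that raising low levels to 0.25 leaves no difference. *CYP71B25* (AT3G26270) was at 0.199, 0.246 and 0.134 in mock and at 0.108, 0.121 and 0.0915 in 4mer arrays. These levels are also all under 0.25, so a floor of 0.25 leaves no difference in this gene either. The groups did not overlap, and the log2 fold change was -0.82 (95% interval -1.64 to 0.01, adjusted p = 0.443).

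The third dim gene past 1.5-fold was *CYP71B31* (AT3G53300), in the upward direction. It was at 0.0136, 0.00539 and 0.00922 in mock and at 0.0116, 0.0378 and 0.0170 in 4mer arrays. The groups overlapped, since 4mer replicate 1 lay below mock replicate 1, and the fitted log2 fold change was 1.15 (95% interval -0.51 to 2.81, adjusted p = 0.579). *CYP71B16* spread over more than its group difference, from 0.00808 to 0.0995 in mock and from 0.0161 to 0.124 in 4mer arrays. Its log2 fold change of 0.52 turned to -0.25 without mock replicate 1. *CYP71B30P*, whose suffix marks a pseudogene although the gene table lists it as protein-coding, was at 0.0414 ± 0.0177 (SD, n = 3) in mock and 0.0421 ± 0.0197 in 4mer arrays. *CYP71B27*, which the gene table lists as a transcribed pseudogene, ranged from 0.0348 to 0.273 in mock and from 0.101 to 0.299 in 4mer arrays. Its log2 fold change was 0.44, and 1.04 without mock replicate 1, with adjusted p-values of 0.863 and 0.534.

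The remaining *CYP71B* genes, *CYP71B35*, *CYP71B36*, *CYP71B37* and *CYP71B38*, had mean levels of 0.411, 0.237, 0.277 and 0.213 in mock and of 0.425, 0.227, 0.256 and 0.214 in 4mer arrays. Mock and 4mer arrays overlapped in all 4 of them. On the log2 scale they differed by 0.05, -0.06, -0.17 and 0.11, and the adjusted p-values lay between 0.871 and 0.964. Without mock replicate 1 the differences were 0.18, 0.08, -0.14 and 0.44, so that *CYP71B36* changed sign. The widest of their intervals, that of *CYP71B38*, ran from -0.83 to 1.05, the upper end being a 2.08-fold rise.

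Outside the *CYP71B* genes and *CYP718*, the families had 1 dim gene each and none passed the test. *CYP79A2* encodes the enzyme that turns phenylalanine into the aldoxime of benzylglucosinolate. It was at 0.0201 ± 0.0052 (SD, n = 3) in mock and 0.0224 ± 0.0017 in 4mer arrays (log2 fold change 0.19, adjusted p = 0.924). These levels are as low as those of the dim pollen genes. *CYP84A4*, of the synthesis of the phenolic arabidopyrones, was at 0.313 ± 0.038 and 0.295 ± 0.060 (log2 fold change -0.10, adjusted p = 0.916). *CYP78A9*, a growth regulator of fruits and seeds, was at 0.252, 0.363 and 0.407 in mock and at 0.284, 0.262 and 0.341 in 4mer arrays. Mock replicate 1 was the lowest array here, and without it both other mock arrays were above all 4mer arrays, with a log2 fold change of -0.38 in place of -0.18 (adjusted p = 0.455 and 0.831). *CYP51G2*, a transcribed pseudogene related to the sterol demethylase gene, was at 0.435 ± 0.044 and 0.464 ± 0.086 (log2 fold change 0.08, adjusted p = 0.917). Its interval from -0.41 to 0.58 lay just within 1.5-fold.

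Mock replicate 1 was the highest of the 6 arrays in 7 of the 24 genes and the lowest in 5, where the shares over all probe sets were 37.3% and 23.8%. What set it apart was not tested. Other genes of the P450 system were few. None of 37 further P450 genes, listed for their known roles, could be matched to a probe set by gene ID. Of 11 listed genes for electron donors and their relatives, 2 were measured and neither passed. AT3G02280, a diflavin reductase, was at 0.713 ± 0.110 (SD, n = 3) in mock and 0.678 ± 0.041 in 4mer arrays (log2 fold change -0.06, adjusted p = 0.917). AT5G20080, a cytochrome b5 reductase of mitochondria, was at 12.9 ± 1.5 and 12.2 ± 0.6 (log2 fold change -0.09, adjusted p = 0.794). Both had overlapping groups.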

How the data were processed

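The authors quantified ATH1 arrays with MicroArray Suite 5.0, and the deposited values are its probe set signals, an intensity on a linear scale. Detection calls and the scaling target are not given in the sources used here. As in the study, signals were floored at 0.01 and divided by the median of their array, and their log2 was fitted in limma 3.58.1 (R 4.3.3; lmFit, eBayes with a variance trend) on all 6 arrays, without covariates, with Benjamini-Hochberg adjustment over 22746 probe sets. The study's methods name SAM without a threshold, so limma took its place. Intervals of 95% use the moderated standard error. Precision is limited by the number of arrays.

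Probe sets were named from a platform annotation and the TAIR10.1 gene table; 13513 pair with 1 gene, 503 with several and 8730 are not listed. The files name no genome build, so no coordinates are given.

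The members, lists and tests were chosen with earlier results of these data known, the fall of *CYP718* included. Genes to be named were *CYP718*, those that passed, the 10 with the smallest p in each direction at a mean level of at least 0.5, the 4 of family 71 with the smallest p and the 5 brightest, which gave 11. The other 13 were named to account for every member, after their values had been seen. Replicate numbers were checked for pairing by correlating deviations from group means. The fit was tested on simulated data with independent noise in each array. Changes were added there only to probe sets with a mean level of at least 0.5. That test therefore covers neither an array that stands apart nor a gene as dim as *CYP718*. Alternatives were quantile normalization, no scaling, a floor or an offset of 0.25, a brightness filter of 0.5, no variance trend, a replicate block, leaving out each array, averaging a gene's probe sets, leaving out probe sets marked as matching several transcripts, and the study's ratio to the mock median.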

Additional observations from a re-analysis of the deposited data

How the results depend on the processing

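Depth is limited by signal: 15 of the 24 P450 genes have a mean level under 0.5, where 1 interval in 15 lay within 1.5-fold. Same-numbered arrays did not deviate together (correlations from -0.04 to -0.03, against -0.02 to 0.06 for other pairs). Deviations from a mean of 3 arrays are tied to each other, and mock replicate 1 stands apart, so this check cannot exclude that the numbers pair the samples. With the replicate block no P450 gene passed (0 in place of 1), none was higher by unadjusted p (0 in place of 1), and *CYP718* had a log2 fold change of -3.10 with an adjusted p of 0.0873. Over all probe sets, 23 passed in limma, 0 with the block, 2 without a variance trend, 10 with the floor, 59 above the brightness limit, 338 without mock replicate 1 and 0 or 1 without any other array.

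With a floor of 0.25, 0 P450 genes in place of 1 were at least 1.5-fold higher and 1 in place of 3 lower, the median log2 fold change was 0 and that of *CYP71B21* was 0. An offset of 0.25 gave 0 higher and 1 lower. Restricted to a mean level of at least 0.5, which leaves out *CYP718*, 0 genes passed, 2 in place of 4 were lower by unadjusted p, and 0 were 1.5-fold higher or lower. Without a variance trend 2 were lower by unadjusted p. Leaving out 1 array gave 0 to 1 genes that passed, 0 to 1 higher and 1 to 4 lower by unadjusted p, 1 to 3 at least 1.5-fold higher and 3 lower in each case, medians from -0.10 to 0.059, and for *CYP718* from -3.20 to -2.96. Over the same fits *CYP71B28* ranged from -0.34 to 0.042 and *CYP71B34* from -0.16 to 0.087, both positive without mock replicate 1, and *CYP71B23* from -0.13 to 0.034, positive without 4mer replicate 1. With the study's ratio to the mock median, *CYP71B28* and *CYP71B34* were at 0.038 and 0.083, and *CYP71B21* was at -1.32. In these cases the cause was not tested. None of the 10 named *CYP71B* genes passed in any of 129 fits under alternatives, where the smallest adjusted p was 0.161. Quantile normalization and no scaling kept every count of P450 genes within 1.5 times, and the mean of a gene's probe sets did so for the counts by adjusted and unadjusted p. No member has a probe set marked as matching several transcripts, so leaving those out changed nothing. Whether an unmarked probe set also picks up transcripts of close *CYP71B* neighbours was not tested.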

Other observations

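Of the 3 annotated genes on either side of *CYP718* along chromosome 2, 1 was measured. AT2G42860, its next neighbour on one side, was at 0.336, 0.182 and 0.155 in mock and at 0.167, 0.151 and 0.229 in 4mer arrays. The groups overlapped, and the log2 fold change was -0.24 (95% interval -1.11 to 0.63, adjusted p = 0.845, limma). Mock replicate 1 was the highest array, and without it the log2 fold change was 0.09.

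In a count added after the data had been seen, the groups without mock replicate 1 did not overlap in 10 of the 24 P450 genes, with the 4mer arrays above in 4 and below in 6, where the shares over all probe sets were 16.5% and 19.1%. *CYP71B34* and *CYP71B31* joined the genes that were higher, and *CYP78A9* joined those that were lower.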
